A study of Mus musculus with 8 samples.

Results

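The Hox cluster genes are the 39 protein-coding homeobox genes whose symbols are Hoxa, Hoxb, Hoxc or Hoxd followed by a number, out of 21938 protein-coding genes in the mouse annotation used here. They were chosen by symbol alone, and none of the measured values entered the choice. They were described in ATAC-seq peak lists of mouse cutaneous squamous cell carcinoma (SCC) cells. ATAC-seq uses the transposase Tn5 to cut open DNA, so a peak marks a stretch of accessible chromatin. The tumours arose in FVB mice of genotype K14CreER FAKflox/flox after DMBA/TPA chemical carcinogenesis, with Ha-Ras given as the driver gene. The keratin 14 promoter drives the inducible Cre in the mice, and focal adhesion kinase (FAK) was deleted after the tumour cells had been isolated, by culture with 4-hydroxytamoxifen. All 4 lines carry that deletion and come from a FAK-deficient clone. FAK-/- cells had no FAK put back, FAK-WT cells re-express the wild-type protein, FAK-nls cells a protein with the changes R177A, R178A, R190A, R191A, R216A and R218A that impair its entry into the nucleus, and FAK-kd cells the kinase-deficient K454R protein, each by retroviral transduction. Each line had 2 libraries. The study asked whether FAK, its nuclear localization and its kinase activity alter accessible chromatin, and here that question was put to the Hox clusters.

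Hox genes encode transcription factors that tell cells where along the body axis they lie. Mammals hold them in 4 clusters in which the order of the genes follows the order of their expression, with the genes of low paralog number (the 3′ end of the cluster) used toward the head and those of high number (the 5′ end) toward the tail and the tips of the limbs. Adult skin cells, fibroblasts above all, keep a record of their place in the body in the Hox genes they use, and Polycomb complexes hold the unused part of a cluster closed.

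On the chromosomes used here, the lists held between 24383 peaks (FAK-nls replicate 1) and 53703 peaks (FAK-WT replicate 1), and the FAK-nls libraries were the 2 shortest lists, with 24383 and 24959 peaks. Sequencing depths were not used here, a stretch that was not called may still be accessible below the calling threshold, and the part of the list lengths in any difference between lines was checked only by repeating counts on the 24383 strongest peaks of every library and by scaling covered bases to all those covered in the library. In bulk libraries, fewer cells with an open region and less opening per cell cannot be told apart. The labelled cell type was checked by peaks within 500 bp of the start sites of marker genes. Of 10 keratinocyte and squamous markers, 8 (*Sfn*, *Cdh1*, *Itgb4*, *Dsp*, *Krt5*, *Krt18*, *Trp63* and *Epcam*) had a peak in no library, and *Krt14* and *Krt8* in 1 library each, so that the summed covered length of the list ran from 0 to 236 bp. Of 7 fibroblast and mesenchyme markers, *Twist2*, *Pdgfra* and *Pdgfrb* had a peak in all 8 libraries, *Col1a1* in 6, *Col1a2* in 1 and *Thy1* and *Dcn* in none. The summed lengths of this list were 1685 to 3481 bp. Of 4 melanocyte markers, *Mitf* and *Pmel* had a peak in all 8 libraries and *Tyr* and *Dct* in none, with sums of 1315 to 1911 bp, while the sums over 5 leukocyte and 3 endothelial markers were at most 54 and 501 bp. Apart from the *Krt14* and *Krt8* calls, the defining epithelial markers were without peaks in cells labelled as squamous carcinoma, in all 4 lines. The part of cell identity in the values below was not tested.

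Peaks in the Hox clusters lay mostly in their 3′ and middle parts and were weak. The share of genes with a peak in all 8 libraries was lower for the Hox genes than for all protein-coding genes, a difference that was not tested. A gene was counted as having a peak when at least 1 bp of a peak overlapped its annotated body or the 2 kb upstream of it, a stretch called its window here. Of the 39 genes, 28 had a peak in at least 1 library. Only 6 genes (15.4%) had a peak in all 8 libraries, among them *Hoxa3*, *Hoxa4*, *Hoxb9*, *Hoxc5* and *Hoxc6*, against 47.5% of all protein-coding genes. There were 11 genes with a peak in no library (28.2%, against 30.4% of all genes), namely *Hoxa2*, *Hoxa6*, *Hoxa11*, *Hoxa13*, *Hoxb1*, *Hoxb5*, *Hoxb13*, *Hoxc11*, *Hoxc12*, *Hoxd1* and *Hoxd11*. The windows of some genes overlap, since long annotated isoforms of *Hoxa3*, *Hoxc5*, *Hoxd3* and *Hoxd4* span their neighbours, so 1 peak can count for several genes and the genes are not independent of one another.

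The number of Hox genes with a peak was 23 and 21 in the FAK-WT libraries (replicates 1 and 2), 21 and 14 in the FAK-/- libraries, 10 and 12 in the FAK-nls libraries and 17 and 19 in the FAK-kd libraries. The FAK-nls libraries were the lowest and did not overlap with any other line. The line means were 22 ± 1.41 genes for FAK-WT, 18 ± 1.41 for FAK-kd, 17.5 ± 4.95 for FAK-/- and 11 ± 1.41 for FAK-nls cells (SD, n = 2 libraries). Over all protein-coding genes the share with a peak moved less, from 52.0% in FAK-nls replicate 1 to 64.8% in FAK-WT replicate 1, while the share of Hox genes ran from 25.6% to 59.0% in the same libraries. On the 24383 strongest peaks, the order of the lines turned. This cut is the length of the shortest list, FAK-nls replicate 1, so it could only lower the counts of the longer lists. It kept 7 of 7 and 10 of 11 Hox peaks in the FAK-nls libraries and 3 of 28 in FAK-WT replicate 1. The turn therefore cannot decide whether the lines differ. After the cut, 4 and 9 Hox genes had a peak in the FAK-WT libraries, 7 and 3 in FAK-/-, 10 and 12 in FAK-nls and 7 and 10 in FAK-kd libraries, and the FAK-nls libraries were among the highest. Over all protein-coding genes the shares were 48.2% and 50.6% in FAK-WT and 48.4% and 49.1% in FAK-/- libraries. They were 52.0% and 51.6% in FAK-nls and 50.5% and 49.7% in FAK-kd libraries, so FAK-nls was the highest there too. Then 1 gene (2.56%) still had a peak in all 8 libraries, against 38.9% of all genes, and 23 (59.0%) had none, against 39.9%.

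**Figure D1:**
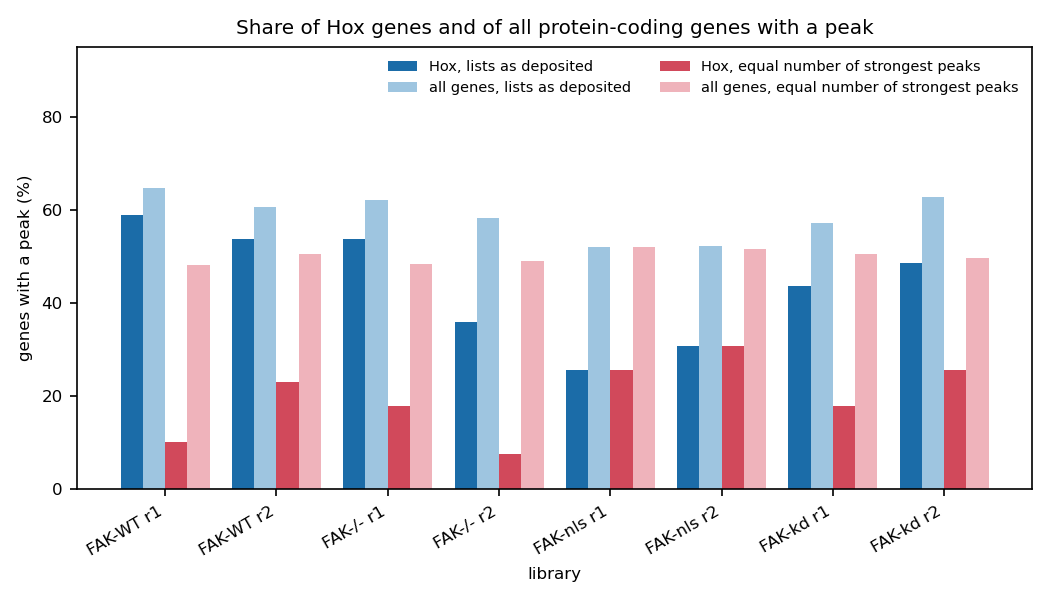
Share of the 39 Hox genes (dark bars) and of all 21938 protein-coding genes (pale bars) with a peak in each library, in percent, for the lists as deposited (blue) and for the 24383 strongest peaks of each library (red). On the deposited lists the FAK-nls libraries have the lowest Hox shares, at 25.6% and 30.8%, and on equal numbers of peaks the FAK-nls shares are the same while those of the other lines drop, to between 7.69% and 25.6%.

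Peaks in the Hox windows were weak. The windows span 340.771 kb without double counting, and peaks covered 7.02% and 4.62% of that length in the FAK-WT libraries, 4.85% and 3.06% in FAK-/-, 1.32% and 2.03% in FAK-nls and 3.02% and 4.60% in FAK-kd libraries. On the deposited lists this was in each library more than the share covered over the windows of all genes, which ran from 0.896% in FAK-nls to 2.02% in FAK-WT replicate 1. By line, covered shares averaged 5.82 ± 1.69% for FAK-WT, 3.95 ± 1.26% for FAK-/-, 3.81 ± 1.11% for FAK-kd and 1.68 ± 0.506% for FAK-nls cells (SD, n = 2). Set against all the bases covered in a library, the Hox windows held 711 and 653 bp per covered Mb in the FAK-WT libraries, 646 and 500 in FAK-/-, 340 and 523 in FAK-nls and 533 and 566 in FAK-kd libraries. On that scale the 2 FAK-WT libraries were still the highest, though replicate 2 lay close to FAK-/- replicate 1. The median fold enrichment of the Hox peaks over local background, the ratio that the peak caller gives, was between 2.99 and 3.80 across libraries, below the medians of 4.10 to 4.45 over all peaks of the same libraries, and the median Hox peak stood at the 4.26th to 23.6th percentile of its own list. On the strongest peaks, coverage of the Hox windows was 0.574% and 1.41% in FAK-WT, 1.29% and 0.546% in FAK-/-, 1.32% and 1.92% in FAK-nls and 1.40% and 1.19% in FAK-kd libraries, so that FAK-WT overlapped with each of the other lines. On those peaks the Hox share was below that over all gene windows in FAK-WT replicate 1 (1.24% over all genes) and FAK-/- replicate 2 (1.05%) and close to it in FAK-kd replicate 2 (1.18%).

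Merging overlapping peaks of the 8 libraries gave 45 Hox regions within the clusters (12 in Hoxa, 14 in Hoxb, 13 in Hoxc and 6 in Hoxd). Of these, 5 were called in all 8 libraries (11.1%, against 25.8% of the 69399 merged regions of the whole genome) and 13 in 1 library alone (28.9%, against 28.6%). By annotation, 19 of the 45 overlapped a coding exon, 7 an untranslated exon, 5 lay in an intron and 14 lay between protein-coding transcripts. Regions shared by all libraries, and the single *Hoxd* region called in more than 1 library, carry results that follow, so 300 bp of 4 of them are shown, each centred on the stretch that the most libraries called. The sequences were read from the mm10 plus strand (5′ to 3′), with every CpG dinucleotide in capitals. They are chr6:52191792-52192091 upstream of *Hoxa4* (minus strand gene), chr11:96260329-96260628 between *Hoxb13* and *Hoxb9*, chr15:102999301-102999600 in an intron of a non-coding isoform of *Hoxc6*, and chr2:74715841-74716140 in an intron of *Hoxd3* that overlaps an exon of the antisense transcript *Hoxd3os1*.
Hoxa4 upstream: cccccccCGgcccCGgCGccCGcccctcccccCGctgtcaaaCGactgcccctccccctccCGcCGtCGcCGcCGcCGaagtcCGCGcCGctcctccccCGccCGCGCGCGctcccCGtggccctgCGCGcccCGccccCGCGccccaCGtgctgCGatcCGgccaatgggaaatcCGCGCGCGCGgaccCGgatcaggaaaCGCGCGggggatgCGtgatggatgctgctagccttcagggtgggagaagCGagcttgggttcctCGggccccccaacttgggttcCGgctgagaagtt
Hoxb9 distal: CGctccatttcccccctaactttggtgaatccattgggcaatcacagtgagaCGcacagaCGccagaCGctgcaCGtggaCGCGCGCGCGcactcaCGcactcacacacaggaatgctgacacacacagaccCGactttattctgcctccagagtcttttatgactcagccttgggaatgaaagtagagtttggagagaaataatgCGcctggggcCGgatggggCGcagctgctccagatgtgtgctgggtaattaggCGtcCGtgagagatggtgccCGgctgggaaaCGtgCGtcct
Hoxc6 isoform intron: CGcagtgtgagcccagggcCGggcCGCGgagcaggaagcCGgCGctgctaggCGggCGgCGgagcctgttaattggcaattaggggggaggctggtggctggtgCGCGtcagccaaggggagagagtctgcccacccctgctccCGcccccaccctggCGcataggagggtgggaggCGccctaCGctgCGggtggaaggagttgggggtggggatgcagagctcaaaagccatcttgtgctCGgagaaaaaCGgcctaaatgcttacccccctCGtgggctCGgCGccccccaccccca
Hoxd3 intron: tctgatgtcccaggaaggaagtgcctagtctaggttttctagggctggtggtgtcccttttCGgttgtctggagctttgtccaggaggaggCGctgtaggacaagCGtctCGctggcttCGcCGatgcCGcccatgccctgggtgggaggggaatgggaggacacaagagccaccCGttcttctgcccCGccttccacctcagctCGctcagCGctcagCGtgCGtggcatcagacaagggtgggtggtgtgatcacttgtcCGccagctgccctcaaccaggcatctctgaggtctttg

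These 4 stretches held 42, 20, 21 and 14 CpG dinucleotides in that order, and their GC content ran from 56.7% in the distal region of *Hoxb9* to 75.7% upstream of *Hoxa4*, above the median of 49% over 300 bp placed in the same way in all merged regions. Exact matches were sought on both strands to the letters TGACTCA of the AP-1 family (Jun and Fos proteins), TGATTNAT of Hox-Pbx dimers and CCGGAAGT of ETS factors, and to a consensus for CTCF, the factor that sets the borders of chromatin domains. The distal region of *Hoxb9* held an AP-1 match at bases 162 to 168 of the printed sequence, as did 33.2% of all regions. The other 3 held none of these letters, and Hox-Pbx (6.25% of all regions), ETS (1.55%) and CTCF (4.80%) were matched in none of the 4. A match describes the letters only.

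The open part of the clusters lay around paralog groups 1 to 9. When each base of a cluster was assigned to the nearest coding start, peaks covered on average over the 8 libraries 2.84% of the length around groups 1 to 4, 5.23% around groups 5 to 9 and 0.483% around groups 10 to 13. The 5′ part was the least covered of the 3 in each library, with 1.66% and 0.525% in FAK-WT, 0.890% and 0.127% in FAK-/-, 0% in both FAK-nls and 0.462% and 0.208% in FAK-kd libraries. The middle part was the most covered in each library, with 9.18% and 6.21% in FAK-WT, 6.47% and 3.43% in FAK-/-, 1.99% and 3.56% in FAK-nls and 3.80% and 7.16% in FAK-kd libraries. This gradient differed between clusters. In Hoxc the most 3′ part, which holds *Hoxc4* alone, had the highest mean, at 7.96%, whereas in Hoxd no base around the coding starts of *Hoxd1*, *Hoxd3* and *Hoxd4* was covered in any library. The peak in the windows of *Hoxd3* and *Hoxd4* lies nearest to the coding start of *Hoxd8*. It is therefore counted here in groups 5 to 9, and both Hoxd values depend on that assignment.

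**Figure D2:**
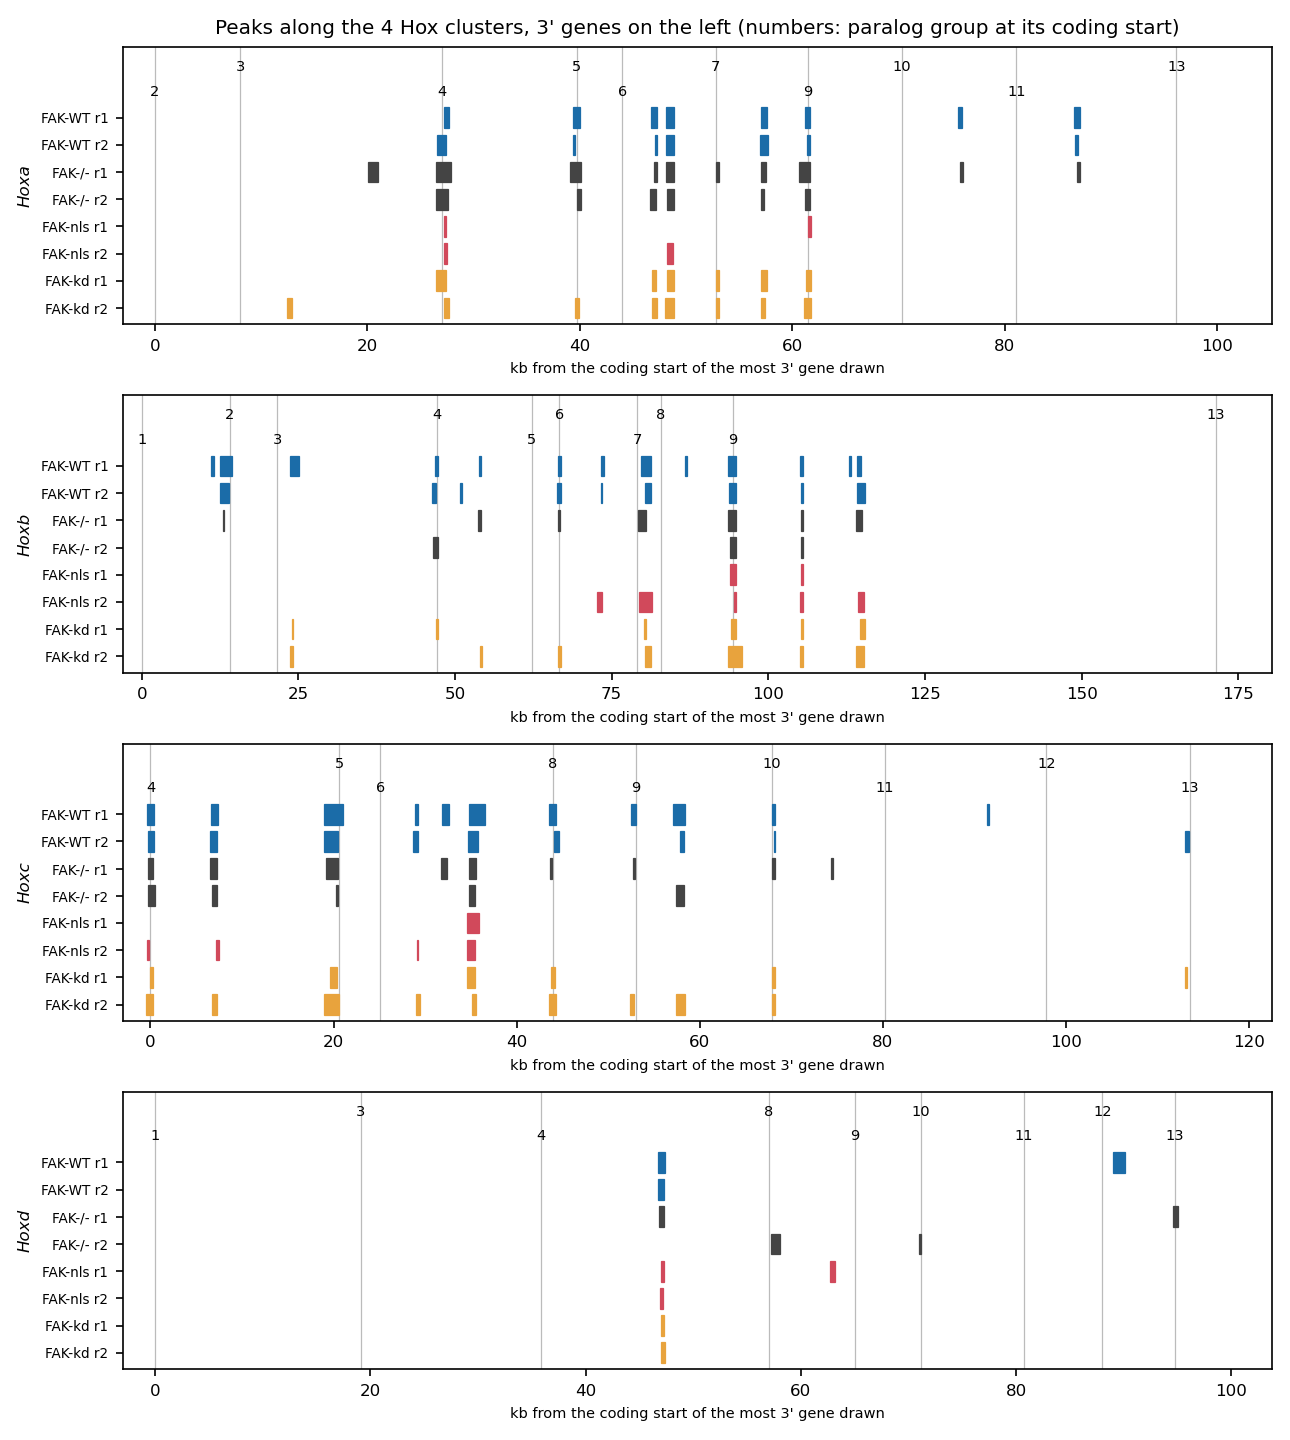
Peaks (filled blocks, drawn to scale) in the 8 libraries along each cluster, in kb from the coding start of the most 3′ gene drawn (the 3′ end of Hoxa is not drawn), with vertical lines and numbers at the coding start of each paralog group. Blocks stack across libraries at *Hoxa4*, *Hoxb9*, the stretch 11 kb 5′ of *Hoxb9* and the stretch between *Hoxc6* and *Hoxc8*, and the 5′ ends (groups 10 to 13) are nearly empty.

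**Figure D3:**
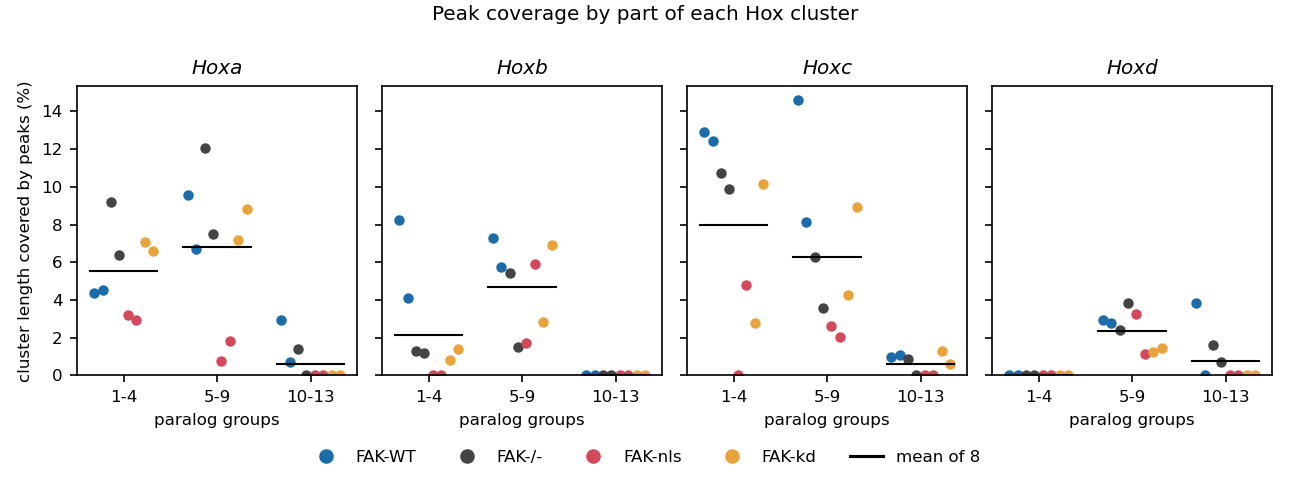
Percent of cluster length covered by peaks around paralog groups 1 to 4, 5 to 9 and 10 to 13, by cluster, with 1 point per library coloured by line and a bar at the mean of the 8 libraries. The part around groups 10 to 13 has a mean of 0.632% in Hoxa, 0% in Hoxb, 0.606% in Hoxc and 0.766% in Hoxd, and the FAK-nls points are at 0% there.

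The *Hoxa* cluster (chr6:52155590-52262880, 11 genes) had a mean of 4.43% of its length covered. Its peaks covered 5898 and 4330 bp in the FAK-WT libraries, 8256 and 5142 bp in FAK-/-, 1607 and 1844 bp in FAK-nls and 5321 and 5663 bp in FAK-kd libraries. The FAK-nls values were below all the others, and the other 3 lines overlapped. On the strongest peaks the FAK-nls libraries held 1607 and 1844 bp and the FAK-WT libraries 1319 and 1057 bp, so that order did not hold. Per Mb covered in the library, the cluster held 175 and 180 bp in FAK-WT and 323 and 247 bp in FAK-/- libraries. It held 122 and 139 bp in FAK-nls and 275 and 205 bp in FAK-kd libraries, so FAK-nls stayed the lowest on that scale.

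*Hoxa4*, with the region chr6:52191108-52192506 across its TSS, had 405 and 856 bp covered in FAK-WT, 1374 and 1129 bp in FAK-/-, 200 and 245 bp in FAK-nls and 922 and 493 bp in FAK-kd libraries. By covered length the FAK-/- libraries were the highest and the FAK-nls libraries the lowest, while FAK-kd overlapped FAK-WT. By fold enrichment the FAK-/- peaks were the weakest of the 8, at 3.29 and 3.26, against 3.51 to 5.00 in the other lines. On the strongest peaks the order turned, with 200 and 245 bp in FAK-nls, 493 bp in FAK-kd replicate 2 and no *Hoxa4* peak in the other 5 libraries. *Hoxa3*, which acts in thymus, parathyroid and neck formation, had 2404 and 2000 bp in FAK-WT, 4359 and 2810 bp in FAK-/-, 200 and 838 bp in FAK-nls and 1982 and 2625 bp in FAK-kd libraries. Its window of 46275 bp takes in the *Hoxa4*, *Hoxa5* and *Hoxa6* loci, so these sums take in peaks of its neighbours. Within 500 bp of the start of its shortest principal transcript, a peak covered 593 to 805 bp in 7 libraries, and none was called in FAK-nls replicate 1. Nearest to its coding start, 1 peak of 460 bp (FAK-kd replicate 2) was called.

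The genes *Hoxa5*, *Hoxa7* and *Hoxa9* were called in 5, 6 and 7 libraries. *Hoxa5*, a regulator of lung and axial patterning, had 739 and 200 bp in FAK-WT, 989 and 411 bp in FAK-/- and 403 bp in FAK-kd replicate 2, and no peak in the other 3 libraries, among them both FAK-nls libraries. *Hoxa7* had 623 and 761 bp in FAK-WT, 754 and 279 bp in FAK-/- and 817 and 582 bp in FAK-kd libraries, again with no peak in FAK-nls. *Hoxa9*, known as a driver of myeloid leukaemia when overexpressed, had 480 and 277 bp in FAK-WT, 1086 and 472 bp in FAK-/-, 257 bp in FAK-nls replicate 1 and none in replicate 2, and 452 and 614 bp in FAK-kd libraries. Of the 5′ genes, *Hoxa10*, which acts in the uterus and hind limb, had 403 bp in FAK-WT replicate 1 and 248 bp in FAK-/- replicate 1 alone, and *Hoxa11* and *Hoxa13*, which pattern the limb ends and the genital tract, had no peak in their windows.

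The *Hoxb* cluster (chr11:96192316-96368256, 10 genes) had a mean of 2.77% of its length covered. The values were 10411 and 6810 bp in FAK-WT, 4985 and 1880 bp in FAK-/-, 1360 and 4640 bp in FAK-nls and 2674 and 6224 bp in FAK-kd libraries. Both FAK-WT libraries were above all the others. On the strongest peaks the FAK-WT libraries held 793 and 908 bp and the FAK-nls libraries 1360 and 3652 bp, so that order did not hold. Per Mb covered in the library, the cluster held 309 and 282 bp in FAK-WT and 195 and 90.3 bp in FAK-/- libraries. It held 103 and 350 bp in FAK-nls and 138 and 225 bp in FAK-kd libraries, so the order did not hold on that scale either. *Hoxb9*, which acts in rib and mammary patterning, was the gene of the cluster called in all 8 libraries, with 1321 and 1079 bp in FAK-WT, 1268 and 858 bp in FAK-/-, 1040 and 279 bp in FAK-nls and 825 and 2291 bp in FAK-kd libraries. The lines overlapped except that both FAK-nls libraries were below both FAK-WT libraries. The strongest *Hoxb* region lay outside every window, at chr11:96260257-96260754, with the stretch that most of its libraries share centred at −10979 bp from the *Hoxb9* TSS, and was picked for mention after its values were seen. It was among the strongest peaks in all 8 libraries, with fold enrichments of 5.86 and 5.21 in FAK-WT, 5.06 and 4.03 in FAK-/-, 4.58 and 4.09 in FAK-nls and 4.74 and 5.50 in FAK-kd libraries and covered lengths of 320 to 478 bp. A further region at chr11:96250433-96251866 was called in 6 libraries, and from there to *Hoxb13*, a marker of prostate and hindgut, no peak was called.

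*Hoxb2*, which acts in the hindbrain and facial nerve, showed the largest split between lines in the cluster. It had 2024 and 1395 bp covered in the FAK-WT libraries, 200 bp in FAK-/- replicate 1, and no peak in FAK-/- replicate 2 or in any FAK-nls or FAK-kd library. These FAK-WT peaks were weak, with fold enrichments of 2.71 and 3.11, and neither was among the strongest peaks of its library. *Hoxb3* had 1506 bp in FAK-WT replicate 1 and none in replicate 2, with 200 and 518 bp in FAK-kd and none elsewhere, so its FAK-WT libraries disagreed. *Hoxb4*, used to expand blood stem cells in culture, had 540 and 673 bp in FAK-WT, 684 bp in FAK-/- replicate 2, 266 bp in FAK-kd replicate 1 and no peak in the other 4 libraries.

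The adjoining genes *Hoxb6*, *Hoxb7* and *Hoxb8* varied as much within lines as between them. *Hoxb7*, overexpressed in several carcinomas, had 1602 and 940 bp in FAK-WT, 1292 and 0 bp in FAK-/-, 0 and 1851 bp in FAK-nls and 265 and 854 bp in FAK-kd libraries. *Hoxb8*, a myeloid oncogene that overlaps the same region, had 784 and 805 bp in FAK-WT, 13 and 0 bp in FAK-/-, 0 and 878 bp in FAK-nls and 0 and 805 bp in FAK-kd libraries. *Hoxb6* had 879 and 760 bp in FAK-WT, 346 and 0 bp in FAK-/-, 0 and 903 bp in FAK-nls and 0 and 412 bp in FAK-kd libraries. For all 3 genes the FAK-nls libraries held both the highest covered length of the 8 and an empty window. *Hoxb1*, which acts in the hindbrain, and *Hoxb5* had no peak in any library.

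The *Hoxc* cluster (chr15:102919103-103036852, 9 genes) had a mean of 3.81% of its length covered, with 9478 and 6204 bp in FAK-WT, 4967 and 3023 bp in FAK-/-, 1314 and 1624 bp in FAK-nls and 3202 and 6067 bp in FAK-kd libraries. The FAK-WT libraries were again the highest and the FAK-nls libraries the lowest, and FAK-kd replicate 2 lay just below FAK-WT replicate 2. On the strongest peaks the FAK-WT libraries held 0 and 2622 bp, the FAK-nls libraries 1314 and 1246 bp and the FAK-kd libraries 0 and 742 bp, and this order was lost. Per Mb covered in the library, the cluster held 282 and 257 bp in FAK-WT and 194 and 145 bp in FAK-/- libraries. It held 99.5 and 123 bp in FAK-nls and 166 and 219 bp in FAK-kd libraries. On that scale FAK-WT stayed the highest and FAK-nls the lowest. The region that all libraries shared (chr15:102998130-103000143) covered 1758 and 1069 bp in FAK-WT, 761 and 667 bp in FAK-/-, 1314 and 819 bp in FAK-nls and 843 and 416 bp in FAK-kd libraries, with fold enrichments from 3.02 to 4.38. FAK-nls overlapped FAK-WT there, and FAK-/- and FAK-kd lay below both FAK-WT libraries. It gives *Hoxc6*, a regulator of thoracic identity and mammary growth, its peak in every library, and the windows of *Hoxc5* and *Hoxc6* share it. Over its whole window *Hoxc6* had 2798 and 1563 bp in FAK-WT, 1376 and 667 bp in FAK-/-, 1314 and 1024 bp in FAK-nls and 843 and 801 bp in FAK-kd libraries, with both FAK-WT libraries above all the others. The *Hoxc5* window of 51987 bp runs back to *Hoxc10*, and its sums of 1024 to 7673 bp add up the regions of its neighbours. The region at the *Hoxc5* start itself (chr15:103013737-103015787) covered 2051 and 1561 bp in FAK-WT, 1354 and 247 bp in FAK-/-, 795 and 1576 bp in FAK-kd libraries and nothing in FAK-nls libraries.

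*Hoxc4*, the most 3′ gene of its cluster, had 1605 and 1547 bp in FAK-WT, 1335 and 1230 bp in FAK-/-, 0 and 600 bp in FAK-nls and 349 and 1262 bp in FAK-kd libraries. Both FAK-WT libraries were above all the others, and the FAK-/- libraries overlapped with FAK-kd. *Hoxc8*, which sets lower thoracic identity, had 722 and 516 bp in FAK-WT, 202 and 0 bp in FAK-/- and 490 and 780 bp in FAK-kd libraries, with no peak in FAK-nls. *Hoxc9* had 1756 and 431 bp in FAK-WT, 209 and 879 bp in FAK-/- and 0 and 1322 bp in FAK-kd libraries, also with none in FAK-nls. *Hoxc10*, a marker of hind limb and of fat and skin of the lower body, had 346 and 204 bp in FAK-WT, 291 and 0 bp in FAK-/- and 423 and 326 bp in FAK-kd libraries and none in FAK-nls. *Hoxc13*, which controls the hair keratins, had 382 bp in FAK-WT replicate 2 and 302 bp in FAK-kd replicate 1 alone, and *Hoxc11* and *Hoxc12* had no peak in their windows.

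The *Hoxd* cluster (chr2:74666310-74765142, 9 genes), which patterns the limbs and genitalia, was nearly free of peaks, with a mean of 0.745% of its length covered. Its peaks covered 1739 and 605 bp in FAK-WT, 974 and 1036 bp in FAK-/-, 706 and 245 bp in FAK-nls and 269 and 316 bp in FAK-kd libraries. The region chr2:74715757-74716393 lies in an intron of the long *Hoxd3* isoforms and gives the windows of *Hoxd3* and *Hoxd4* the same single peak. It was called in 7 libraries, with 637 and 605 bp in FAK-WT, 517 and 0 bp in FAK-/-, 209 and 245 bp in FAK-nls and 269 and 316 bp in FAK-kd libraries, and the FAK-WT libraries were the highest. Its fold enrichment was 5.97 and 4.74 in FAK-WT, 3.82 in FAK-/- replicate 1, 4.35 and 4.46 in FAK-nls and 5.33 and 5.59 in FAK-kd libraries, so that FAK-kd overlapped FAK-WT on that measure while the covered lengths did not overlap. The value of 5.97 stood at percentile 82.2 of its library, the highest of any peak in a Hox window. The other 5 *Hoxd* regions were each found in 1 library. *Hoxd12* had 1061 bp in FAK-WT replicate 1, *Hoxd13* 457 bp in FAK-/- replicate 1, *Hoxd8* 836 bp and *Hoxd10* 200 bp in FAK-/- replicate 2, and *Hoxd9* 324 bp in FAK-nls replicate 1. *Hoxd1* and *Hoxd11* had no peak.

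**Figure D4:**
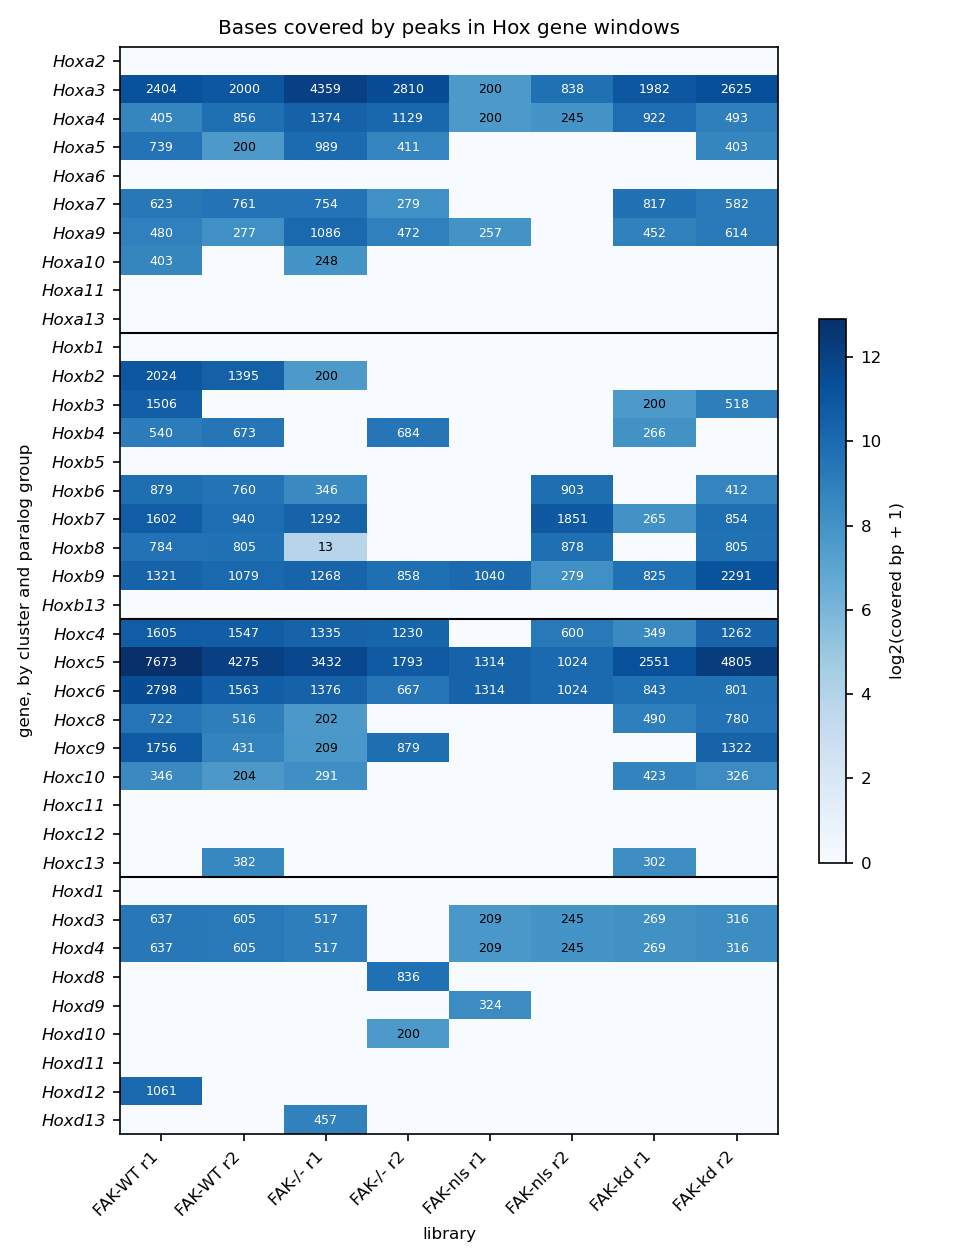
Bases covered by peaks in the window of 38 Hox genes (rows, by cluster and paralog group) in each library (columns), with the value written in each cell that has a peak and shade on a log2(covered bp + 1) scale. Rows filled across all 8 libraries are *Hoxa3*, *Hoxa4*, *Hoxb9*, *Hoxc5* and *Hoxc6*, and 11 rows are empty.

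FAK-WT cells were compared with each of the other lines by counting genes with a peak in both libraries of one line and in neither library of the other. The 3 comparisons share the FAK-WT libraries, and with 2 libraries against 2 an exact permutation test cannot give a two-sided p below 0.333, so these counts were read against the same share over all genes. Against FAK-/- cells, 0 Hox genes were separated toward FAK-WT (1.37% of all genes) and 0 toward FAK-/- (0.442%). Leaving out a library loosens the rule for every gene, so each such count is given with the share of all genes under the same rule. Without FAK-/- replicate 1, 8 genes were separated toward FAK-WT (3.87% of all genes) and 2 toward FAK-/- (0.998%). Without FAK-/- replicate 2 it was 1 each way (1.85% and 1.81%), and without FAK-WT replicate 1 or 2 it was 1 (2.00%) and 2 (3.97%) toward FAK-WT. Against FAK-nls cells, 7 Hox genes (17.9%) were separated toward FAK-WT, namely *Hoxa5*, *Hoxa7*, *Hoxb2*, *Hoxb4*, *Hoxc8*, *Hoxc9* and *Hoxc10*, against 5.68% of all genes, and 0 toward FAK-nls (0.0501%). Without FAK-nls replicate 2 these were 11 (8.65%) and 1 (0.383%). On equal numbers of strongest peaks, 0 genes were separated toward FAK-WT (0.930% of all genes) and *Hoxa4* and *Hoxb9* toward FAK-nls (1.96%). Against FAK-kd cells, *Hoxb2* was the 1 gene separated toward FAK-WT (1.14% of all genes) and 0 genes toward FAK-kd (0.287%). The first count was 3 without FAK-WT replicate 2 (3.33% of all genes), 2 without FAK-kd replicate 1 (1.5%) and 5 without FAK-kd replicate 2 (4.38%), and the second was 1 without FAK-WT replicate 1 (1.20%). On the strongest peaks, 0 genes were separated toward FAK-WT over FAK-kd (0.807% of all genes) and *Hoxa7* toward FAK-kd (0.893%). Against FAK-/- cells on those peaks, *Hoxd3* and *Hoxd4* were separated toward FAK-WT (1.16%) and 0 genes toward FAK-/- (0.907%).

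By covered length, a gene was counted when both libraries of a line exceeded both of the other. Toward FAK-WT over FAK-/-, 9 Hox genes (23.1%) were counted, namely *Hoxb2*, *Hoxb6*, *Hoxb8*, *Hoxc4*, *Hoxc5*, *Hoxc6*, *Hoxc8*, *Hoxd3* and *Hoxd4*, near the 19.5% of all genes. In the other direction there were 3, among them *Hoxa3* and *Hoxa4*, against 4.38% of all genes. The first count was 16 without FAK-WT replicate 2 (43.3% of all genes), and the second was 5 without FAK-WT replicate 1 (18.0%), 6 without FAK-/- replicate 1 (9.17%) and 6 without FAK-/- replicate 2 (15.9%). Over FAK-nls, 16 Hox genes (41.0%) were higher in FAK-WT, below the 46.9% of all genes, and 0 in FAK-nls (0.369%), the latter count being 1 without FAK-WT replicate 1 (2.24%), 3 without FAK-nls replicate 1 (2.14%) and 2 without FAK-nls replicate 2 (2.38%). The position against all genes turned when covered bases were taken as a share of the library. Then 12 Hox genes (30.8%) were higher in FAK-WT, above the 11.8% of all genes, and 1 (2.56%) in FAK-nls, below 24.7%. With peaks of 500 bp, 30.8% of Hox genes were higher in FAK-WT than in FAK-nls, against 18.0% of all genes. Over FAK-kd, 8 Hox genes (20.5%) were higher in FAK-WT, namely *Hoxb2*, *Hoxb4*, *Hoxb6*, *Hoxb7*, *Hoxc4*, *Hoxc6*, *Hoxd3* and *Hoxd4*, against 16.3% of all genes, and 1 in FAK-kd, against 3.7%. The first of these was 14 without FAK-WT replicate 2 (40.5% of all genes) and 15 without FAK-kd replicate 2 (39.4%). The second was 4 without FAK-WT replicate 1 (16.3%), 2 without FAK-WT replicate 2 (5.43%), 5 without FAK-kd replicate 1 (19.4%) and 4 without FAK-kd replicate 2 (7.08%). On the strongest peaks, *Hoxd3* and *Hoxd4*, through 1 shared peak in their intron region, were the 2 genes higher in FAK-WT than in each of the other 3 lines, a smaller share of the 39 than the 15.1% of all genes over FAK-/-, 29.2% over FAK-nls and 12.8% over FAK-kd. In the opposite direction FAK-/- was higher at 1 gene (5.54% of all genes), FAK-nls at 3 genes (3.59%) and FAK-kd at 3 genes (5.45%).

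Across all 4 lines, the covered length of each gene was put to an exact permutation test that ran through every way of dividing the 8 libraries into 4 pairs, with the share of variance between lines as the statistic (one-sided, smallest possible p 0.00952). Of the 28 Hox genes with any peak, 0 passed Benjamini-Hochberg adjustment over all 15276 genes tested at 0.05, as did 0% of all genes, and the lowest adjusted p was 0.406. At an unadjusted exact p under 0.05 there were 2 Hox genes, among them *Hoxa3* (p = 0.0286), against 11.1% of all genes tested. Where 1 line alone stands apart, other divisions come close to the true one. *Hoxb2*, with 0.951 of its variance between lines, had p = 0.143 in this permutation test. A gene with a peak in 1 library alone, such as *Hoxd12*, cannot pass. The count and the share therefore do not decide whether Hox genes differed more or less than others. Without FAK-WT replicate 1 or FAK-nls replicate 1 there were 0 such Hox genes (8.14% and 6.93% of all genes tested), without FAK-nls replicate 2 there was 1 (6.91%), and without FAK-/- replicate 2 there were 5 (8.90%). Of all genes, 346 were at the smallest possible p, too few for any gene to pass, so the adjusted test could not reach its threshold here and says nothing about whether Hox genes differed between lines.

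Many Hox promoters are rich in CpG, a feature that usually goes with open promoters. Within 500 bp of the start of the shortest principal transcript, 3 of the 39 Hox genes (7.69%), among them *Hoxa4* and *Hoxb9*, had a peak in all 8 libraries and 20 (51.3%) in none, against 35.6% and 49.5% of 21851 protein-coding genes. Of the 39, 25 had a CpG-rich promoter (GC content of at least 50% and an observed to expected CpG ratio of at least 0.6). Peaks were present in all 8 libraries at 3 of these 25 (12%) and in none at 12 (48%), whereas of all 9692 CpG-rich promoters 67.5% were open in all 8 libraries and 14.9% in none. The CpG-rich promoters of *Hoxa13*, *Hoxd11*, *Hoxd1* and *Hoxc12* were among those without a peak in any library, with CpG ratios of 0.931, 0.916, 0.802 and 0.893.

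Genes that work with the Hox proteins or on their clusters were counted in the same windows, where 47.5% of all protein-coding genes had a peak in all 8 libraries. Of 9 Hox cofactor genes, which encode the homeodomain partners that Hox proteins bind DNA with, 6 (66.7%, among them *Pbx3*, *Pbx4*, *Meis1*, *Meis2* and *Pknox1*) had a peak in all 8 libraries, *Pknox2* in 7, *Pbx2* in 4 and *Meis3* in 1. Of 15 genes for regulators of the clusters, 13 (86.7%) had a peak in all 8 libraries, among them *Ezh2*, *Eed* and *Suz12* of the Polycomb repressive complex that methylates histone H3, *Kmt2a* of the opposing Trithorax group and *Ctcf*. The exceptions were *Ring1* (6 libraries) and *Cbx7* (5 libraries), and both were missing in FAK-/- replicate 2 and FAK-nls replicate 1. Of the 5 homeobox genes of the related Evx and Cdx families, *Evx1*, *Cdx2* and *Cdx4* had a peak in no library, *Evx2*, which adjoins *Hoxd13*, in 2 and *Cdx1* in 3.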

How the data were processed

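ATAC-seq was carried out on 4 SCC lines with 2 libraries each, grouped by the sample labels. The authors aligned reads to mm10 with the bcbio pipeline and called broad peaks in each library separately with MACS2 (version 2.1.1 in the processing notes). The deposited lists give each peak's position and length, its pileup (coverage signal), −log10 p-value, fold enrichment (a ratio to local background) and −log10 q-value, and no read counts. A longer list covers more genes, and list length was not modelled.

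Only the numbered chromosomes (1 to 19), X and Y were used. Gene windows (body plus 2 kb upstream) came from the GENCODE M21 annotation of GRCm38, and covered bases were counted in Python 3.11.15 with NumPy 2.4.6 and pandas 2.3.3. "Strongest" peaks were the 24383 of lowest p-value per library. A principal transcript was the shortest one with that tag. No library pair shared more than 0.0361% of identical peaks. Shared replicate numbers did not pair libraries (correlations of −0.176 to 0.081 between lines). The permutation test was tested on simulated data. Named were the Hox genes, with values in each library for those called in some but not all libraries and for the most steadily called gene of each cluster, by the percentile of its weakest library. Some genes and 1 sequence are not reported here. The members, gene lists, markers and tests were chosen with earlier results of these data known. Alternatives were a −log10 q of at least 3, strongest peaks, peaks of 500 bp, an overlap of 200 bp, the body alone, 5 kb upstream, 1 kb around start sites, covered bases as a share of the library, a replicate block and leaving out each library. Windows on the principal transcript were added after seeing the data. The study calls the numbered libraries of a line biological replicates, and the sources do not say whether they came from separate cultures, so p-values measure the spread between these libraries.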

Additional observations from a re-analysis of the deposited data

How the results depend on the processing

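Of 182 recalculations other than leaving out a library, 122 stayed within 1.5 times the reported count (or 1 SD for cluster lengths) and 60 did not. Counts toward and away from FAK-WT are given as FAK-/-, FAK-nls, FAK-kd, with the share of all genes under the same setting in parentheses. The cause of each shift was not tested unless the alternative itself leaves fewer peaks.

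With a −log10 q of at least 3, 18 Hox genes had a peak in at least 1 library (62.3%), 0 in all 8 (31.0%), and 8 in both libraries of FAK-WT, 3 of FAK-/-, 0 of FAK-nls and 7 of FAK-kd cells (51.5%, 45.9%, 32.7% and 46.8%), from 20, 11, 8 and 15 on the full lists. Separation by presence toward FAK-WT was 3, 2 and 0 (2.34%, 9.22% and 1.43%). By covered length it was 7 over FAK-nls (43.5%) and 4 over FAK-kd (14.6%) toward FAK-WT and 0 toward FAK-/- (2.73%). Mean covered lengths fell to 2185, 1420.5, 2103 and 259 bp in Hoxa, Hoxb, Hoxc and Hoxd. With equal numbers of strongest peaks, 16 genes had a peak in at least 1 library (60.1%), 1 in all 8 (38.9%), and 3, 3 and 6 in both FAK-WT, FAK-/- and FAK-kd libraries (45.5%, 45% and 46.4%). Presence gave 2, 0 and 0 genes toward FAK-WT (1.16%, 0.930% and 0.807% of all genes) and 0, 2 and 1 away (0.907%, 1.96% and 0.893%). Covered length gave 2, 2 and 2 toward FAK-WT (15.1%, 29.2% and 12.8% of all genes) and 1, 3 and 3 away (5.54%, 3.59% and 5.45%). Mean lengths were 2101, 1171 and 988 bp in Hoxa, Hoxb and Hoxc.

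With peaks of 500 bp, covered length gave 3 genes over FAK-/- (4.82%) and 3 over FAK-kd (4.03%) toward FAK-WT and 0 toward FAK-/- (1.73%), and presence gave 1 over FAK-/- (1.35%), as did an overlap of 200 bp (1.34%), start sites (0.757%) and principal transcripts. With the body alone, 5 genes had a peak in both FAK-nls libraries (46.6%) and 3 in all 8 (45.2%). With 5 kb upstream, 2 genes were higher in FAK-kd (3.66%). Around start sites, 4 genes had a peak in both FAK-nls libraries (41.9%), and covered length gave 4 over FAK-/- (15.8%) and 4 over FAK-kd (13.4%) toward FAK-WT and 1 toward FAK-nls (0.460%). With principal transcripts, chosen after seeing the data and set for the Hox genes alone, so that no share of all genes applies, these were 4 in FAK-nls, 5 and 3 toward FAK-WT, 2 toward FAK-kd, and 1 by presence toward FAK-kd. As a share of the library's covered bases, 5 genes were higher in FAK-kd (13.2%) and 1 in FAK-nls (24.7%), and toward FAK-WT there were 6, 12 and 9 (8.43%, 11.8% and 7.43%).

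Leaving out a library changed the counts as follows. Genes in both FAK-/- libraries ranged from 11 to 21. Presence toward FAK-WT ranged from 0 to 8, 7 to 11 and 1 to 5, and away from 0 to 2, 0 to 1 and 0 to 1. Covered length toward FAK-WT ranged from 9 to 16, 16 to 19 and 8 to 15, and away from 3 to 6, 0 to 3 and 1 to 5. Separation needs fewer libraries to differ then, for every gene. Where a line kept 1 library, that library was assumed to vary like the others in the permutation test. The number of Hox genes with an adjusted p under 0.05 was 0 under each alternative run, with lowest adjusted p values of 0.350 to 1 over the alternatives, and a test that cannot reach its threshold says nothing about stability. With the replicate block (smallest possible p 0.0417), 0 genes passed adjustment and 1 passed unadjusted (6.06%), against 2 without it. The unadjusted count was also 1 with the body alone (10.2%) and with peaks of 500 bp (1.0%) and 0 around start sites (11.3%), shares that are of the genes tested. The replicate numbers showed no pairing. Without read counts, depth limits each absence to a peak that was not called.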

Other observations

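Beside the clusters, 5 of 9 neighbouring genes (*Lnpk*, *Mtx2*, *Skap2*, *Hibadh* and *Cbx5*) had a peak in all 8 libraries (55.6%, against 47.5% of all protein-coding genes), *Smug1* in 7, *Skap1* in 6, *Ttll6* in 5 and *Calcoco2* in 1. *Skap1*, a neighbour of the *Hoxb* cluster, had 1251 and 580 bp covered in the FAK-WT libraries, 723 and 325 bp in FAK-/-, 655 and 650 bp in FAK-kd and none in the FAK-nls libraries.

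Of 11 non-coding genes in or beside the clusters, 1 had a peak in all 8 libraries (9.09%), against 17.1% of the 11205 annotated genes of the same non-coding types. *Mir615*, which lies within *Hoxc5*, had a peak in 6 libraries and none in FAK-nls. *Halr1*, at the 3′ side of the *Hoxa* cluster, had 582 bp in FAK-/- replicate 2, 364 and 527 bp in the FAK-kd libraries and none elsewhere, so it was called in no FAK-WT library. *Hotair*, *Hottip*, *Haglr*, *Mir10a*, *Mir10b*, *Mir196a-1*, *Mir196a-2* and *Mir196b* had a peak in no library (72.7% of the 11, against 61.4%).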
